A study of Homo sapiens with 6 samples.

Results

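DEAD box and DEAH box proteins are ATP-driven RNA helicases, named after the one-letter amino acids of a conserved motif that binds and hydrolyses ATP. They pull apart short RNA duplexes and strip proteins from RNA at nearly every step of an RNA's life, from splicing and ribosome assembly to export, translation and decay. Several of them also open G quadruplexes, the stacked structures that guanine-rich RNA and DNA can fold into, and PhenDC3 is a synthetic ligand that holds such structures in their folded form. Messenger RNA was sequenced from HT-1080, an established human fibrosarcoma cell line. In 3 libraries the cells had received 20 μM PhenDC3 in 1% DMSO for 48 h, and in the other 3 libraries 1% DMSO alone for 48 h. The 47 DEAD and DEAH box genes described, of 22925 genes listed, were taken from those whose symbol is DDX or DHX followed by a number, with at most a closing A, B or X for DDX. Of the 47, 31 had a DDX symbol and 16 a DHX symbol. The group of RNA G quadruplex unwinders was DHX36, DHX9, DDX3X, DDX5 and DDX21, and the other 42 genes served as their comparison.

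All values are normalized counts, which are gene read counts divided by 1 size factor per library, and fold changes are PhenDC3 over DMSO. Log2 changes are of the normalized count plus 1. Recovered reads came to between 7371056 and 9386691 per PhenDC3 library and between 12574952 and 14292987 per DMSO library. RNA of the mitochondrial genome took 15.4% to 15.5% of reads in PhenDC3 and 3.72% to 3.96% in DMSO. With edgeR and TMM scaling, 16 of the 47 genes were called higher and 13 lower, with or without the mitochondrial genes. The part of depth, and of this share beyond that setting, was not tested. Within the 47 genes a single library held between 14 reads (DHX58) and 11580 reads (DDX5), so precision differs widely between them. Of the mesenchymal markers, VIM was at 13620 normalized counts in PhenDC3 and 25153 in DMSO, and FN1 at 5265 and 8465. The other mesenchymal markers were low. THY1, COL1A1, PDGFRB and S100A4 averaged 5.43, 83.2, 56.7 and 53.4 in PhenDC3 and 1.52, 53.9, 85.1 and 43.5 in DMSO. The fibroblast collagen genes COL1A2 and COL3A1 averaged under 5 in both groups. The 8 mesenchymal markers summed to 19017 to 19209.7 normalized counts per PhenDC3 library and 32246 to 35746 per DMSO library. Of the 5 tested, 1 rose and 3 fell. Beside this and the marker counts below, 29.2% of all 16482 tested genes were higher and 30.4% lower. Epithelial keratins KRT8 and KRT18 were also present, at 1366 and 1125 in PhenDC3 and at 1190.3 and 1257 in DMSO, and EPCAM, CDH1, PECAM1 and PTPRC are not among the genes analysed here. The listed epithelial markers (4 of 7) summed to 2438 to 2684 in PhenDC3 and 2279 to 2801 in DMSO. Of these 4, KRT8 and ELF3 rose, ELF3 standing at 10.6 in PhenDC3 and 0.259 in DMSO, and 0 fell. Endothelial markers (2 of 4) summed to 235 to 317 in PhenDC3 and 227 to 302 in DMSO. Nearly all of this was EGFL7, at 280 in PhenDC3 and 257 in DMSO, with VWF at 1.71 and 0.259. The 1 listed of 5 immune markers, CD68, rose, at 7.87 to 19.4 in PhenDC3 and 4.64 to 7.78 in DMSO. The part of these markers in the results was not tested. All 47 genes passed the minimum mean of 5 normalized counts and were tested.

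As a family the helicases moved in both directions and mostly by small amounts, with a rise and a fall that stood far outside the rest. By limma, 25 of the 47 changed (53.2%) at the 0.05 threshold of adjusted p, 11 higher and 14 lower, against 59.6% of all 16482 tested genes and 67.4% of those at or above the lowest mean level in the family. The authors' deposited table calls 22 members, all among the 25 and in the same direction, against 39.0% of its 21593 genes with an adjusted p. Those genes were not held to the minimum mean that all members passed, so this share is not like the limma shares. The median log2 change was 0.07 in the family and -0.02 over all tested genes. Changes of 1.5-fold or more were called for 6 members, which were DDX42, DDX51 and DHX40 among the higher and DDX46, DHX9 and DDX60 among the lower. That is 12.8% of the family, against 33.0% of all tested genes, and 32.2% of the genes at or above that lowest level. For 28 of the 47 genes (59.6%) every PhenDC3 library lay on 1 side of every DMSO library, against 64.1% of all tested genes. By symbol, 20 of the 31 DDX genes and 5 of the 16 DHX genes were called. The split of the calls moved with the scaling. With edgeR and TMM it was 16 higher and 13 lower (34.0% and 27.7%, against 30.9% and 32.1% of all tested genes). With edgeR and library totals it was 6 higher and 20 lower (12.8% and 42.6%, against 22.5% and 43.4% of all tested genes). That second scaling moved the median of all tested genes to -0.20 and that of the family to -0.09. Under library totals DDX31, DDX39B, DDX41, DDX43 and DDX49 were no longer called. That scaling added calls for DDX1, DDX56, DDX59, DHX15, DHX29 and DHX57, all as lower. Without a variance trend DDX49, DDX54 and DDX6 were not called, and DDX47 was. Leaving out 1 library added calls for DDX3X (without PhenDC3 replicate 1), DDX47 (without PhenDC3 replicate 3), DDX21 (without DMSO replicate 2), DDX39A (without DMSO replicate 3) and DHX29 (without PhenDC3 replicate 2 or DMSO replicate 3). DDX28 and DDX59 were added without PhenDC3 replicate 2.

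**Figure D1:**
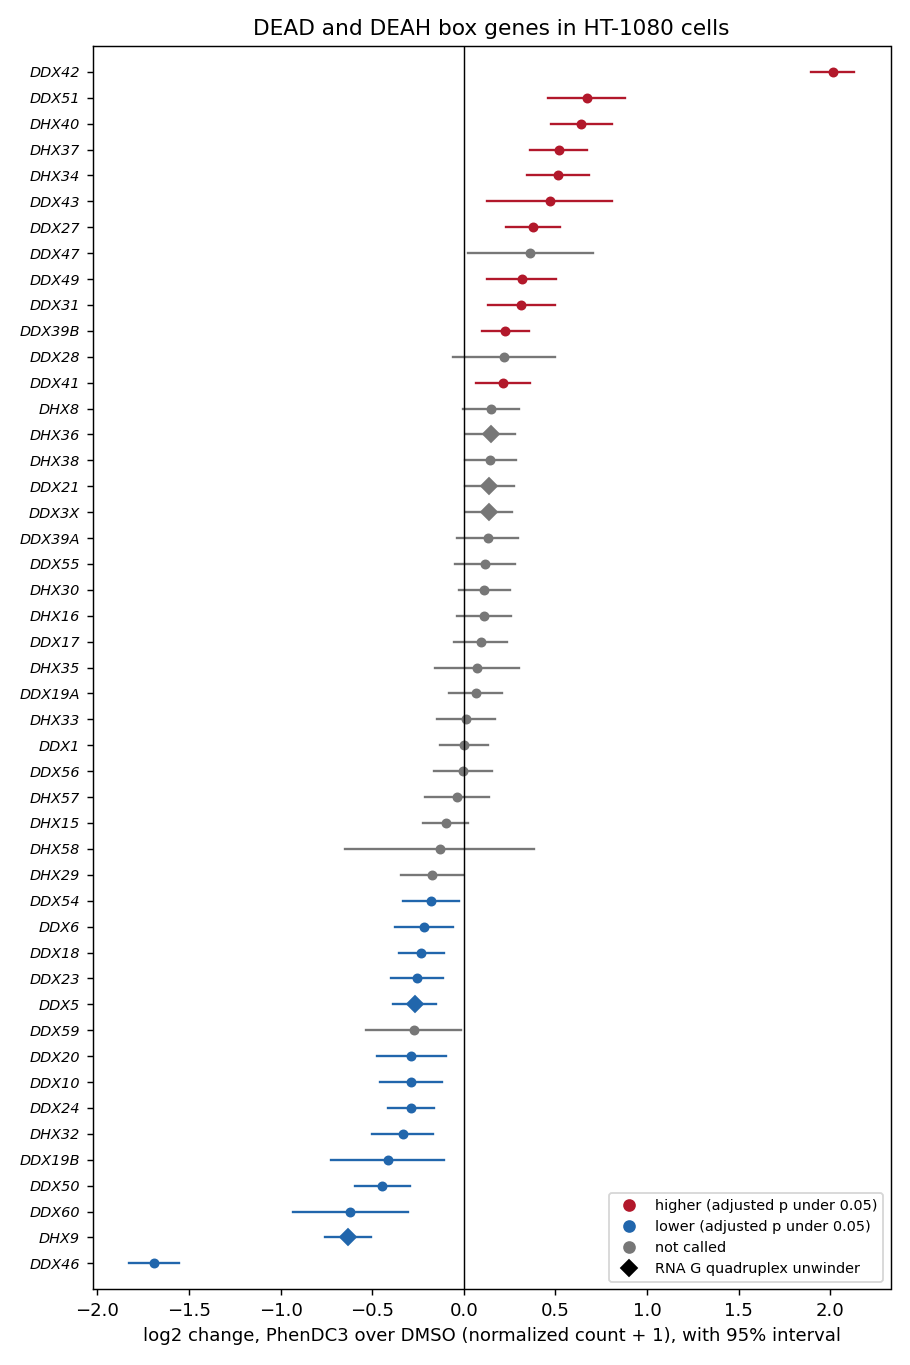
Log2 change of each of the 47 DEAD and DEAH box genes, PhenDC3 over DMSO, with its 95% interval from limma (n = 3 libraries a group). DDX42 at 2.01 and DDX46 at -1.69 stand apart, and the other 45 genes lie between -0.63 and 0.67.

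The 2 outlying genes are both helicases of the splicing machinery. DDX42 encodes a protein that associates with SF3b, the part of the U2 snRNP that holds the branch point. DDX42 had 7487, 7493 and 7472 normalized counts in the PhenDC3 libraries, against 1860.1, 1855 and 1839 in the DMSO libraries. The libraries of each group lay close together and the groups were far apart. DDX42 rose 4.04-fold (limma, log2 2.01, SE 0.06, adjusted p = 1.71e-16), and 3.09% of all tested genes had a larger change in either direction. DDX46, the human counterpart of yeast Prp5, remodels the U2 snRNP when it engages the branch point and also contacts SF3B1. DDX46 had 725, 792 and 786 normalized counts in PhenDC3 and 2450, 2594 and 2398 in DMSO. It fell to 31.0% of its DMSO level (limma, log2 -1.69, SE 0.07, adjusted p = 2.92e-14), a change exceeded in size by 4.999% of tested genes. DDX42 counts were 10.3, 9.45 and 9.50 times those of DDX46 in the PhenDC3 libraries and 0.759, 0.715 and 0.767 times in the DMSO libraries. The order of the pair was therefore reversed in every library of the treated group. This pairing was singled out after the values had been seen and was not tested.

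The SF3a and SF3b genes, whose products form the complex around these helicases, were read for 6 subunits, and each changed far less than DDX42 or DDX46. SF3B1 averaged 4057 normalized counts in PhenDC3 and 4797 in DMSO, a fall to 0.846 of its DMSO level, and SF3B3 and SF3A3 fell to 0.876 and 0.865. SF3B2, SF3A1 and SF3A2 did not pass, at 1.02, 0.958 and 1.08 times their DMSO level. Genes that share exonic bases with the pair were also read, since the treatment of strand and shared bases in counting was not given in the sources used here. CCDC47 shares 173 exonic bases with DDX42 on the opposite strand, 2.03% of the DDX42 exonic length, and its log2 change was 0.24 (adjusted p = 0.00165). C5orf24 shares 236 exonic bases with DDX46 on the same strand, 2.56% of its exonic length, and was higher, with a log2 change of 0.54 (adjusted p = 2.63e-06).

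**Figure D2:**
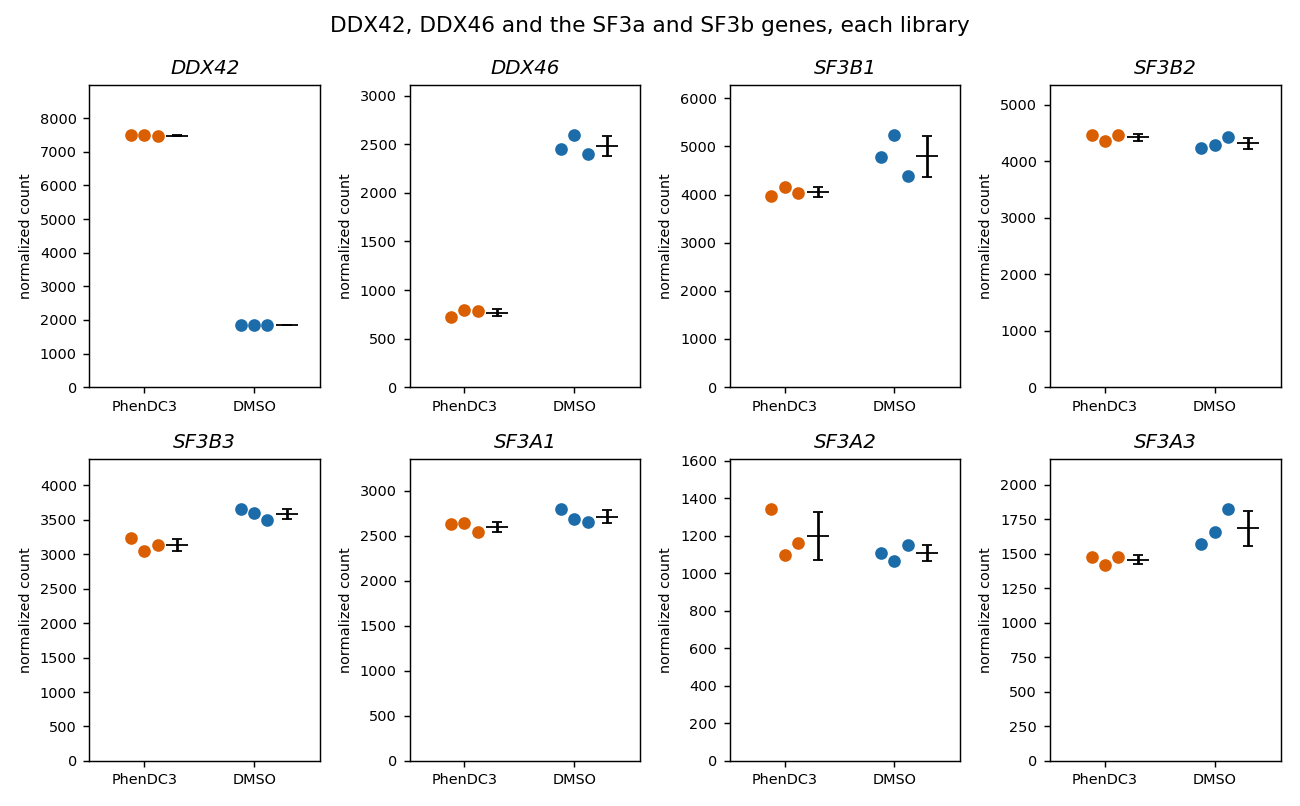
Normalized counts per library for DDX42, DDX46 and 6 SF3a and SF3b genes, with the mean and SD of 3 libraries in black beside the points. DDX42 lies between 7472 and 7493 in PhenDC3 and between 1839 and 1860.1 in DMSO, DDX46 lies between 725 and 792 in PhenDC3 and between 2398 and 2594 in DMSO, and the SF3 genes average 0.846 to 1.08 times their DMSO mean in PhenDC3.

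Because the ligand binds G quadruplexes, the promoters of the 3 members with the largest changes among those holding a quadruplex motif, DDX42, DDX46 and the unwinder DHX9, are shown. Each is the 250 bases before the RefSeq gene start on GRCh38.p14, read 5′ to 3′ on the gene's strand, all 3 genes being on the plus strand. Capitals mark the motif, GGG repeated 4 times or more with 1 to 7 bases of any kind between runs, or its complement in runs of CCC. Capital runs of C place the guanine runs on the template strand, as in DDX42 and DHX9, and capital runs of G place them on the coding strand, as in DDX46.
DDX42, chr17:63773920-63774169: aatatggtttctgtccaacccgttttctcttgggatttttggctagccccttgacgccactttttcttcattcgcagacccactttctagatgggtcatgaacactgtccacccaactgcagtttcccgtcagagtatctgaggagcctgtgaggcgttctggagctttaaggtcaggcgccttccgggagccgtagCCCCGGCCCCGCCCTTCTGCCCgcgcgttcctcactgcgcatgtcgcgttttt
DDX46, chr5:134758529-134758778: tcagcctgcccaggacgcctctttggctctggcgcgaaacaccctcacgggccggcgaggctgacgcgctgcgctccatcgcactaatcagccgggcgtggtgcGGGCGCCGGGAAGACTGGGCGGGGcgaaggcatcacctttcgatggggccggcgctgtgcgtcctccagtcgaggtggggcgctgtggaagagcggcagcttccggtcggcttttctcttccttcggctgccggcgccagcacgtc
DHX9, chr1:182839097-182839346: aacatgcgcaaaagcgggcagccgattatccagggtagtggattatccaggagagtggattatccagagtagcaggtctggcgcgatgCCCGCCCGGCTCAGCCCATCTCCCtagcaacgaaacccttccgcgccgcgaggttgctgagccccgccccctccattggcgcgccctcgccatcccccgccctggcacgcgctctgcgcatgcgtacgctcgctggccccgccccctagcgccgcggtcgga

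Of the 47 genes, 43 matched a RefSeq promoter window of 300 bases, and DHX33, DDX49, DDX18 and DHX58 did not. The motif was in a window of 13 of the 43 (30.2%), on the coding strand in 8 and on the template strand in 6, DDX6 having both. It was found in 27.9% of all 27305 genes with a window, and in 41.3% of the 10298 tested genes that matched one by symbol. Among the 13 holders 4 rose and 6 fell, with a median log2 change of -0.22. Among the 30 without the motif in a window 6 rose and 7 fell, with a median of 0.11. Of all tested genes 29.2% were higher and 30.4% lower, with a median log2 change of -0.02. All tested genes were not split by motif, so the medians have no matching reference, and a link of motif to change was not tested. DDX42 and DDX46 thus both carry the motif and moved in opposite directions. A match describes letters and does not show that a quadruplex forms there.

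The RNA G quadruplex unwinders divided into falls and values near their DMSO level. DHX9 and DDX5 fell, while DHX36, DDX3X and DDX21 were 1.10 to 1.11 times their DMSO level and did not pass. DHX9, or RNA helicase A, resolves duplexes and quadruplexes in the nucleus. Its normalized counts were 2621, 2720 and 2666 in the PhenDC3 libraries, against 4174, 4338 and 3925 in the DMSO libraries. The groups did not overlap, and DHX9 stood at 64.4% of its DMSO level (limma, log2 -0.63, SE 0.06, adjusted p = 1.7e-08). It was the largest change among the 5 unwinders. DDX5, or p68, is a transcription and splicing cofactor that can also unfold G quadruplexes. DDX5 had 6310.3, 6500 and 6668 normalized counts in PhenDC3 and 7558, 7905 and 7985 in DMSO, again without overlap. It fell to 83.1% of its DMSO level (limma, log2 -0.27, SE 0.06, adjusted p = 0.000393). DDX5 shares 506 exonic bases, 6.85% of its length, with CEP95 on the opposite strand, whose log2 change was 0.07 (adjusted p = 0.49).

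DHX36 is the best known quadruplex resolvase, binding parallel G quadruplexes of DNA and RNA through a dedicated N-terminal motif. DHX36 had 2064, 2199 and 2154 normalized counts in PhenDC3 and 1996, 2013 and 1795 in DMSO. Every PhenDC3 library was above every DMSO library, but the difference did not pass (limma, log2 0.15, 95% interval 0.01 to 0.28, adjusted p = 0.0578). DDX3X helps ribosomes scan through structured leaders and has a nearly identical homologue on the Y chromosome with which it may share reads. DDX3X had 4771, 5182 and 4987 normalized counts in PhenDC3 and 4642, 4644 and 4303 in DMSO. These too did not overlap and did not pass (limma, log2 0.14, 95% interval 0.01 to 0.26, adjusted p = 0.0548). DDX21 is a nucleolar helicase that couples transcription of ribosomal RNA to its processing. Its normalized counts were 5889, 6518 and 6034 in PhenDC3 and 5663, 5932 and 5153 in DMSO, with overlap between the groups (limma, log2 0.14, 95% interval 0.01 to 0.27, adjusted p = 0.0672). The upper ends of the 3 intervals, for DHX36, DDX3X and DDX21, were 0.281, 0.261 and 0.274.

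Set beside the other members, 0 of the 5 unwinders were higher and 2 were lower, while of the other 42 genes 11 were higher and 12 lower. In all, 40% of the unwinders and 54.8% of the other members were called, against 59.6% of all tested genes. Median log2 changes were 0.14 for the unwinders and 0.07 for the other members, and medians of the absolute change were 0.15 for the unwinders and 0.23 for the other members. The count of unwinders rests on values near the threshold, since edgeR with TMM scaling on recovered reads called all 5, DHX36, DDX3X and DDX21 as higher. Scaled by library totals, DHX36, DDX3X and DDX21 had log2 changes of -0.02, -0.03 and -0.03, not called, which lay 0.17 to 0.18 above the shifted median of all genes. Per kilobase of annotated exon, DDX21 and DDX5 were the most abundant members in both groups, with 1224 and 879 normalized counts per kb in PhenDC3 and 1112 and 1058 in DMSO. DHX9 ranked 6 of 47 in PhenDC3 and 3 of 47 in DMSO on this scale. DDX42 ranked 3 in PhenDC3 and 16 in DMSO, and DDX46 ranked 34 in PhenDC3 and 12 in DMSO.

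**Figure D3:**
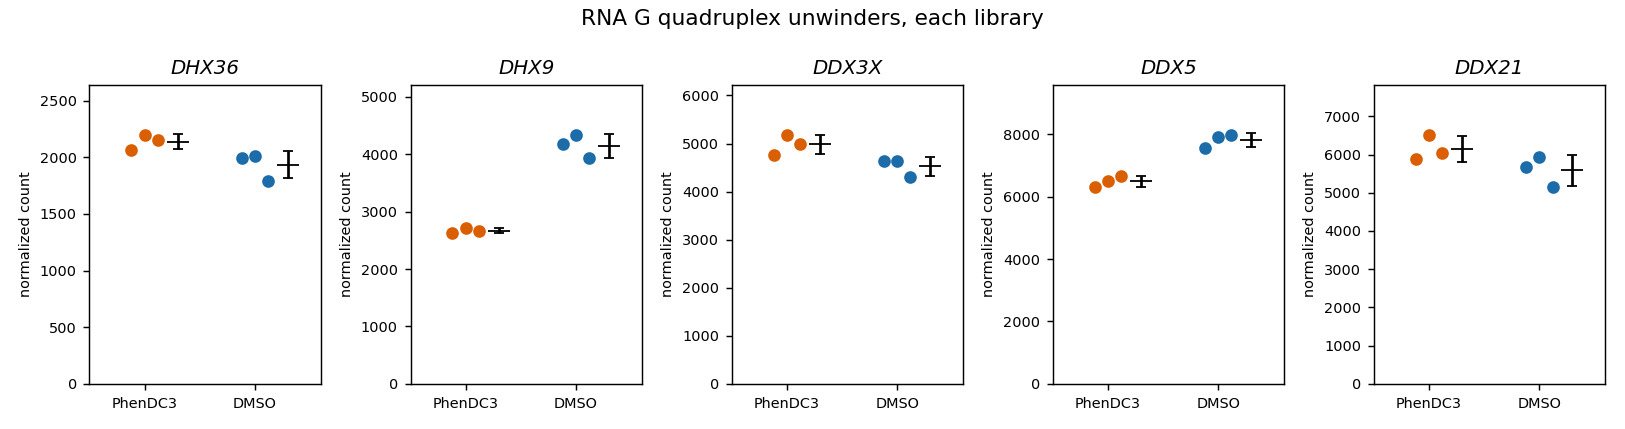
Normalized counts per library of the 5 RNA G quadruplex unwinders, PhenDC3 left and DMSO right, with the mean and SD of 3 libraries in black. DHX9 and DDX5 are lower in all 3 PhenDC3 libraries, and the other unwinders average 1.10 to 1.11 times their DMSO mean.

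The helicases grouped here under splicing, other than DDX42 and DDX46, stayed within 1.56-fold of DMSO. Of the 13 in this group 4 rose and 2 fell (46.2% called, against 59.6% of all tested genes), with a median log2 change of 0.13. They include DDX39A and DDX39B, which also act in messenger RNA export and are described with the other paralog pairs. DHX40 had 665, 732 and 714 normalized counts in PhenDC3 and 423, 492 and 439.9 in DMSO, a 1.56-fold rise without overlap (limma, adjusted p = 8.72e-07). The DEAH helicases that activate the spliceosome, remodel it between steps, release the message and take the complex apart did not pass. DHX16, the counterpart of yeast Prp2, DHX38, of Prp16, DHX8, of Prp22, and DHX15, of Prp43, had log2 changes of 0.11, 0.14, 0.15 and -0.10. DHX35 (log2 0.07) and DDX59 (log2 -0.27) also did not pass, although without PhenDC3 replicate 2 DDX59 was called, at -0.42 (limma, adjusted p = 0.00454). DHX38 was called as higher with edgeR and TMM, and limma called DHX8 and DHX38 at an adjusted p under 0.1. DDX23, the counterpart of yeast Prp28, which admits the U6 snRNA to the splice site, fell to 0.838 of its DMSO level. DDX41, mutated in familial myeloid leukaemia, rose 1.16-fold, a call that was lost without PhenDC3 replicate 3 or without DMSO replicate 2.

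Of the 15 ribosome assembly helicases 5 rose and 5 fell, where 29.2% of all tested genes were higher and 30.4% lower, and their median log2 change was 0.12. DDX51, which acts on the 3′ end of 28S ribosomal RNA, had 367, 380 and 387 normalized counts in PhenDC3 and 205, 238 and 273 in DMSO. It rose 1.58-fold with the groups apart (limma, log2 0.67, SE 0.10, adjusted p = 9.59e-06). DHX37, which releases the U3 snoRNA from the small subunit precursor, had 659, 659 and 669 in PhenDC3 and 444, 457 and 485 in DMSO. DHX37 rose 1.43-fold (limma, adjusted p = 5.18e-06), and again no library crossed over. DDX27, a factor for 47S precursor processing, had 1269.9, 1344 and 1281 in PhenDC3 and 931, 994 and 1074 in DMSO, a 1.299-fold rise. DDX49 had 827, 670 and 750.5 in PhenDC3 and 574, 549.8 and 681 in DMSO, a 1.24-fold rise whose libraries overlapped. DDX31 rose 1.24-fold. Opposite-strand neighbours of DDX27 and DDX31 also rose: ZNFX1, which covers 3.72% of the DDX27 exonic bases, by a log2 of 0.47, and GTF3C4, which covers 6.62% of those of DDX31, by 0.66.

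On the falling side, DDX50, the nucleolar paralog of DDX21, had 553, 589.5 and 568 normalized counts in PhenDC3 and 756, 770.2 and 804 in DMSO. It fell to 0.734 of its DMSO level (limma, adjusted p = 2.09e-05) without overlap. DDX24 had 1753, 1794 and 1715 in PhenDC3 and 2087, 2201 and 2141 in DMSO, a fall to 0.818. DDX10 had 350.3, 353 and 359.5 in PhenDC3 and 413, 438 and 446 in DMSO, a fall to 0.819. The groups did not overlap for DDX24 or DDX10. OTUB2, on the opposite strand over 7.41% of the DDX24 exonic bases, rose by a log2 of 1.25. DDX18, a large subunit factor, fell to 0.852 and DDX54 to 0.882, the second losing its call without PhenDC3 replicate 2 or 3 and without DMSO replicate 1 or 3, and not called in the authors' deposited table (adjusted p = 0.0808). DDX21, DDX47, DDX55, DDX56 and DHX33 did not pass, with log2 changes from -0.0044 to 0.36. The largest of these, DDX47, was at 59.2 normalized counts in PhenDC3 and 45.7 in DMSO, and 36.5% of its exonic bases are shared with APOLD1 on the same strand. APOLD1 was at 4.44 in PhenDC3 and 18.8 in DMSO.

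**Figure D4:**
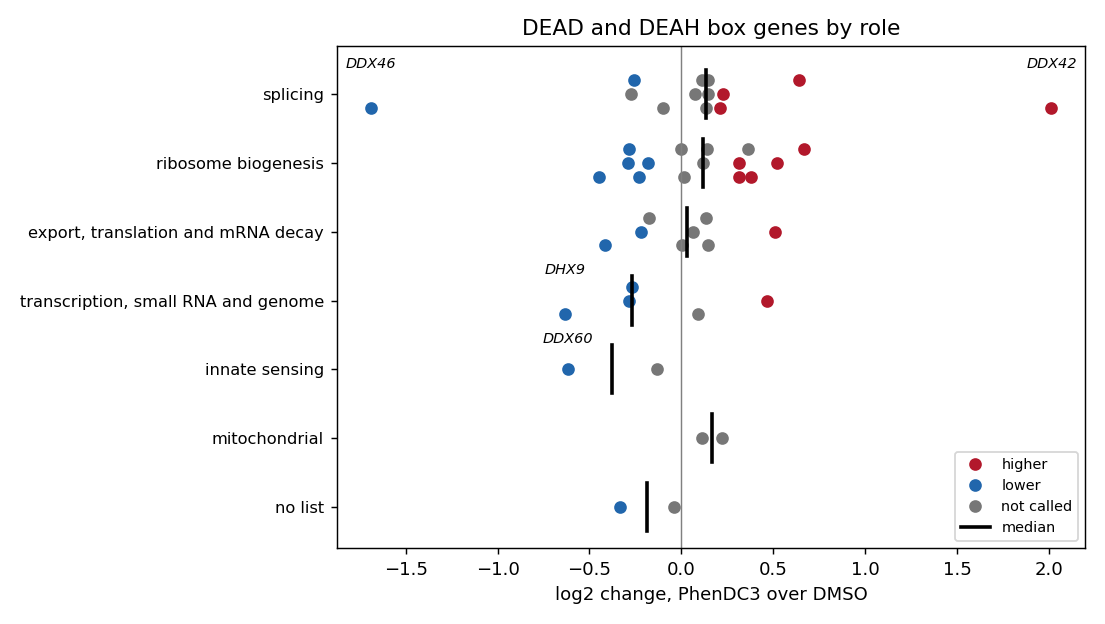
Log2 change of each DEAD and DEAH box gene, PhenDC3 over DMSO, by role, with the median of each group as a black bar. The rises and falls of the ribosome biogenesis group lie on both sides of 0, and DDX42 and DDX46 mark the ends of the splicing group.

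In export, translation and decay 1 of 8 genes rose and 2 fell (37.5% called, against 59.6% of all tested genes). DHX34, which promotes nonsense-mediated decay, had 579.9, 521 and 516 normalized counts in PhenDC3 and 366, 371 and 394 in DMSO. It rose 1.43-fold without overlap (limma, log2 0.51, SE 0.08, adjusted p = 1.77e-05). DDX19B, which releases messenger RNA at the nuclear pore, had 76.9, 74.4 and 59.0 in PhenDC3 and 84.8, 95.1 and 101 in DMSO. It fell to 0.750 of its DMSO level (limma, adjusted p = 0.0197), which the authors' deposited table did not call (adjusted p = 0.111). The call was also lost without PhenDC3 replicate 3, DMSO replicate 2 or DMSO replicate 3. DDX6, a decapping activator of processing bodies, fell to 0.857, but its libraries overlapped and the call was lost without PhenDC3 replicate 1 or 3 and without DMSO replicate 1 or 2. DDX1, a subunit of the tRNA ligase complex, was at 2434 normalized counts in both groups and did not pass (log2 0.0012, 95% interval -0.13 to 0.13). DHX29, a translation initiation helicase, had a log2 change of -0.17 (adjusted p = 0.0755).

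Among the helicases grouped under transcription, small RNA and genome, 1 of 5 rose and 3 fell, where 29.2% of all tested genes were higher and 30.4% lower, and DHX9 and DDX5 were among the falls. DDX20, or Gemin3 of the SMN complex that assembles spliceosomal snRNPs, fell to 0.821 of its DMSO level. DDX43, a cancer-testis antigen otherwise found mainly in germ cells, had 55.6, 71.5 and 65.6 normalized counts in PhenDC3 and 48.3, 44.1 and 45.5 in DMSO. It rose 1.40-fold (limma, adjusted p = 0.0186), a call missing from the authors' deposited table (adjusted p = 0.119) and lost without PhenDC3 replicate 2 or DMSO replicate 2. On the opposite strand, OOEP shares 13.8% and CGAS 6.41% of the DDX43 exonic bases. CGAS was at 84.7 normalized counts in PhenDC3 and 92.7 in DMSO, and OOEP at 1.33 and 3.05. Of the sensors of viral RNA, the interferon-induced DDX60 had 55.6, 77.4 and 64.3 in PhenDC3 and 109, 102 and 91.7 in DMSO. DDX60 fell to 0.652 with the groups apart (limma, log2 -0.62, SE 0.15, adjusted p = 0.00138). DHX58, or LGP2, was at 28.1 ± 10.2 normalized counts in PhenDC3 and 29.6 ± 2.79 in DMSO (SD, n = 3 each), and its log2 interval of -0.65 to 0.38 was the widest in the family. The mitochondrial ribosome assembly helicases DHX30 and DDX28 did not pass, with log2 changes of 0.11 and 0.22. Without PhenDC3 replicate 2 DDX28 was called, at 0.33 (limma, adjusted p = 0.0433). DHX32 had 421, 489.8 and 450.0 in PhenDC3 and 572, 588 and 554 in DMSO, a fall to 0.794 without overlap (limma, adjusted p = 0.00125). Neighbours on the opposite strand share 22.5% of the DDX28 exonic bases (DUS2, log2 -0.05) and 10.4% of those of DHX32 (BCCIP, log2 -0.13), and neither was called. DHX57, like DHX32 in no role list, had a log2 change of -0.04 and did not pass.

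Within 4 pairs of paralogs the ratio of counts was compared by library, and in 3 of them the groups did not overlap. For single genes the groups did not overlap in 64.1% of all tested genes, and the share among ratios of other gene pairs was not computed. The DDX5 count was 0.939, 0.937 and 0.978 times that of its paralog DDX17 in PhenDC3 and 1.09, 1.177 and 1.41 times in DMSO. DDX17 itself did not pass, at 6722, 6940.3 and 6815 normalized counts in PhenDC3 and 6925, 6717 and 5653 in DMSO. The DDX21 count was 10.6, 11.04 and 10.6 times that of DDX50 in PhenDC3, against 7.48, 7.69 and 6.40 times in DMSO. The ratio was 1.501 times as high in PhenDC3, with a called fall of DDX50 and no call for DDX21. The DDX19A count was 11.2, 10.8 and 13.4 times that of DDX19B in PhenDC3 and 9.02, 8.22 and 8.05 times in DMSO. DDX19A was at 869, 816 and 806 normalized counts in PhenDC3 and 774, 789 and 818 in DMSO and did not pass. For each of these 3 ratios the exact two-sided permutation test over libraries gave p = 0.1, the smallest that 3 against 3 libraries allow (adjusted over 4 pairs, p = 0.133).

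The pair DDX39A and DDX39B, also called URH49 and UAP56, act in messenger RNA export as well as splicing, under which they are counted, and their ratio overlapped between the groups. The DDX39A count was 0.816, 0.722 and 0.805 times that of DDX39B in PhenDC3, against 0.780, 0.777 and 0.952 times in DMSO (exact permutation test, p = 0.6, also 0.6 adjusted over 4 pairs). DDX39B rose 1.17-fold, with 1719.6, 1708 and 1618 normalized counts in PhenDC3 and 1428, 1447 and 1434 in DMSO (limma, adjusted p = 0.00367). DDX39A, at 1402, 1233 and 1302 in PhenDC3 and 1114, 1124 and 1365 in DMSO, did not pass. DDX39B shares 29.7% of its exonic bases with the read-through gene ATP6V1G2-DDX39B, and DDX19A and DDX19B share 23.8% and 15.7% of theirs with AC012184.2 on the same strand, so their counts are uncertain. Pseudogene copies of members were low. The most abundant of the 11 listed, DHX9P1, held 79.5 normalized counts in PhenDC3 and 116 in DMSO, or 2.80% of the DHX9 level in DMSO, and fell with its parent (log2 -0.55, adjusted p = 0.00173).

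**Figure D5:**
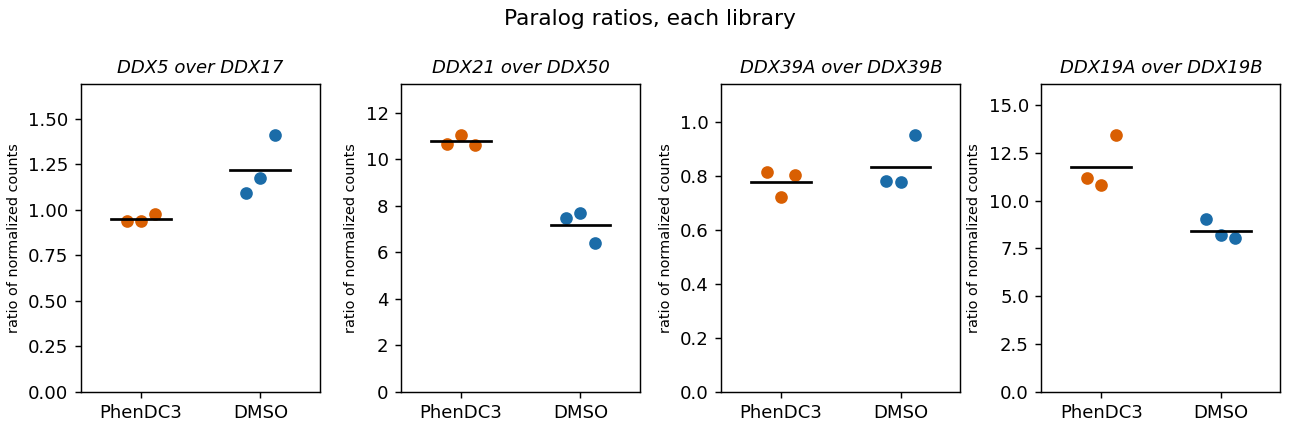
Ratio of normalized counts within 4 paralog pairs, each library as a point and the geometric mean as a line. The PhenDC3 libraries lie below the DMSO libraries for DDX5 over DDX17, above them for DDX21 over DDX50 and DDX19A over DDX19B, and overlap them for DDX39A over DDX39B.

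Helicases of the same superfamilies under other names, and the proteins that work with DEAD and DEAH box enzymes, were read from lists. The backgrounds for these counts are 29.2% of tested genes higher and 30.4% lower. Of the 12398 genes at or above the lowest mean level in the family, 3829 were higher and 4528 lower. Of 17 other helicases 4 rose and 8 fell. EIF4A2, a DEAD box translation initiation factor, fell to 0.608 of its DMSO level, while UPF1, the helicase of nonsense-mediated decay, rose 2.07-fold and ZNFX1 rose 1.38-fold. Of 23 G-patch proteins, the family whose members activate DEAH helicases, 8 rose and 4 fell, GPATCH3 rising 2.26-fold, SUGP2 rising 1.57-fold and RBM17 falling to 0.692. Among 20 genes of TREX, the exon junction complex and export 3 rose and 9 fell. MAGOHB, an exon junction subunit, fell to 0.469 and the nucleoporin NUP155 to 0.641, while the export receptor NXF1 rose 1.54-fold.

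Of 16 decapping and deadenylation genes around DDX6, 6 rose and 5 fell. EDC3 and EIF4ENIF1, which both bind DDX6, rose 2.27-fold and 2.24-fold, while LSM2, of the ring that binds deadenylated messages, fell to 0.370. Among 24 spliceosome genes 3 rose and 11 fell, SYF2 and SLU7 rising 1.55-fold and 1.45-fold and PRPF19 falling to 0.738. Of 30 ribosome assembly factors 6 rose and 14 fell, RRP12 rising 1.74-fold and IMP3 and FBL falling to 0.560 and 0.650. Of 15 granule proteins 3 rose and 9 fell, with PABPC1, the cytoplasmic poly(A) binding protein, at 0.579 of its DMSO level, and with rises of FXR2 (1.80-fold) and FMR1 (1.69-fold). Of 14 other RNA binding proteins known to bind G quadruplexes 4 rose and 9 fell. HNRNPH3 fell to 0.503, CNBP, which unfolds such structures, to 0.639, and HNRNPA2B1 to 0.661. NCL, FMR1 and YBX1 stand in more than 1 of these lists. With edgeR and library totals the split of the G-patch calls became 3 higher and 12 lower, and that of the decapping calls 5 higher and 8 lower. The same scaling gave 3 higher and 11 lower of the other helicases and 2 and 13 of the export genes. It gave 2 and 16 of the spliceosome genes and 4 and 20 of the ribosome assembly factors. The granule proteins, at 3 and 10, and the G quadruplex binding proteins, at 3 and 9, changed little. Over all genes the split moved to 3369 higher and 6501 lower of 14984 tested (22.5% and 43.4%). The median log2 changes of the lists ran from -0.29 for the granule proteins to 0.07 for the decapping and deadenylation genes.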

How the data were processed

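The deposited signal values are read counts per gene after division by a size factor for each library, as the values themselves show. All of them (100%) were whole multiples of 1 read within a relative tolerance of 1e-06. The authors' deposited log2 fold changes and adjusted p-values were copied as such and are credited where used. Per the submitters' processing notes, TopHat2 2.0.11, Cufflinks 2.2.1, STAR 2.7, featureCounts, DESeq2 1.18.1 and hg19 were named, without their roles. The kit was stranded, per the labels' protocols, but how the counting used strand was not given in the sources used here. Labels do not tell whether replicates were separate cultures, so p-values measure only how these libraries spread, possibly technically.

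Log2(value + 1) was tested with limma 3.58.1 (R 4.3.3, moderation with a variance trend, no replicate block) in 16482 genes with a mean of 5 or more, Benjamini-Hochberg adjusted over all of them, threshold 0.05. edgeR 4.0.16 and DESeq2 1.42.0 were run on recovered reads. The symbol pattern matched 49 rows, of which 47 are reported here. Members, role groups and lists were chosen with earlier results of these data known. Values in every library are given for the unwinders, 4 paralog pairs, and, among called members with a mean of 50 or more, the 8 that rose most and the 8 that fell most. For each list the rule was up to 3 called genes with the smallest adjusted p. The SF3 genes, DDX42 over DDX46, overlapping genes and promoters were singled out after values were seen. Promoters are from RefSeq, GRCh38.p14. Exonic lengths and overlaps are from GENCODE 29, whose build differs from the authors', so none of its coordinates are printed. Counting error limits the members with few reads.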

Additional observations from a re-analysis of the deposited data

How the results depend on the processing

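Of 25 called members, 20 to 25 kept their call under each alternative with no fold minimum except an adjusted p under 0.01, which kept 19, and none of those kept changed sign. Leaving out 1 library gave 22 to 26 called members, 2 to 3 called unwinders and 8937 to 9646 called genes. A minimum of 1.5-fold left 6 members, 1 unwinder and 5442 genes, by its own construction. All 5 unwinders were called with edgeR and TMM, with or without mitochondrial genes, at an adjusted p under 0.1 and with the replicate block (the cause was not tested). Residuals of same-numbered libraries correlated at 0.0079, 0.071 and 0.027, so the numbers give little sign of pairing, and the block called 30 members and 10155 genes, gaining DDX21, DDX3X, DDX59, DHX29 and DHX36. Members that did not pass changed sign under some settings. Scaled by library totals, log2 changes were -0.018 for DHX8, -0.020 for DHX36 and DHX38, -0.026 for DDX21, -0.029 for DDX3X, -0.037 for DDX39A, -0.051 for DDX55 and DHX30, -0.052 for DHX16, -0.079 for DDX17, -0.093 for DHX35, -0.10 for DDX19A, -0.15 for DHX33 and -0.16 for DDX1 (called, adjusted p = 0.0254), as all genes shifted by a median of -0.20. DDX1 was at -0.0087 with the upper quartile, and DDX56 at 0.0036 with TMM and 0.012 without mitochondrial genes. Leaving out 1 library moved DHX33 between -0.026 and 0.068, DDX1 between -0.032 and 0.039, DDX56 between -0.076 and 0.075, DHX58 between -0.39 and 0.13, and the DDX39A over DDX39B log2 ratio between -0.14 and 0.0019. DESeq2 and the authors' deposited table each called 22 members, all of them also called by limma, without DDX19B, DDX43 and DDX54. Depth limits DHX58 most, with as few as 14 reads in a library.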
